A study of Mus musculus with 24 samples.

Results

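The nuclear-encoded genes of oxidative phosphorylation were followed through the differentiation of male mouse embryonic stem cells (mESCs). Members were all entries of the table whose symbol begins with Nduf, Uqcr, Atp5 or Cox4 to Cox8, or is *Sdha*, *Sdhb*, *Sdhc* or *Sdhd*, without 1 name that contains "-ps". This gave 90 of 25965 genes. They comprise 36 subunits of complex I and 4 of its assembly factors, 4 subunits of complex II, 8 of complex III, 20 of complex IV and 15 of complex V. A further 3 share only the symbol: *Cox4nb* (now *Emc8*) encodes a subunit of the endoplasmic reticulum membrane complex, and *Atp5s* and *Atp5sl* encode factors that are not subunits of the synthase. A gene was tested when its mean log2 rpm (rpm, reads per 1000000 reads of the library) over all libraries was at least 0. This left 87 members among 13296 genes.

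All libraries came from a C57/Bl6 male mESC line, expanded in 2i and moved into DME HiHi serum medium to differentiate. Cells were transduced with a short hairpin RNA on day 2, placed under puromycin from day 3 and harvested on days 4, 5, 6 and 7. The Smarcc1 knockdown cultures carried hairpin Smarcc1.6 or Smarcc1.7, the Smarca4 knockdown cultures carried Smarca4.4 or Smarca4.6, and the control cultures carried the nonsilencing hairpin Nons. *Smarcc1* and *Smarca4* encode a core subunit and an ATPase of the BAF chromatin remodelling complex. With 1 library per hairpin and day there were 8 Smarcc1 knockdown, 8 Smarca4 knockdown and 4 Nons libraries, and both knockdowns were set against the same Nons libraries. Replicates are therefore different hairpins in separate transductions of what the labels give as a single cell line, and a series is the set of 4 days of a hairpin.

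Complexes I and II take electrons from NADH and succinate and pass them through ubiquinone to complex III. Cytochrome c carries them on to complex IV, which reduces oxygen. Complexes I, III and IV pump protons across the inner mitochondrial membrane, and complex V, the ATP synthase, uses the gradient to make ATP. A small set of subunits is encoded in mitochondrial DNA and the rest in the nucleus, and pluripotent cells are known for relying strongly on glycolysis. Several subunits of complexes IV and V exist as isoforms encoded by separate nuclear genes, some ubiquitous and some known from muscle, testis, lung or low oxygen.

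Library totals ranged from 6829596 to 27472885 reads, and 3 reads corresponded to between 0.109 and 0.439 rpm. The 8 pluripotent cell markers examined summed to 1851 to 2294 rpm on day 4 and to 419 to 820 rpm on day 7. *Smarcc1* stood at 23.7% to 60.1% of the same-day Nons level in the 8 Smarcc1 knockdown libraries, and *Smarca4* at 21.6% to 55.3% in the 8 Smarca4 knockdown libraries. The 13 subunits encoded in mitochondrial DNA were listed at 0 reads in every library, so the nuclear share of the system is what these files measure. In bulk RNA, a change in the number of cells that express a gene and a change in RNA per cell cannot be told apart.

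Promoter sequences were looked up for the members, because NRF1, GABP and YY1 are factors known to act on respiratory genes. A RefSeq window of 250 bases before to 50 bases after the start (GRCm38.p6, the patch release of mm10) was found for 69 members and for 8510 other tested genes. Shown here are the 100 bases before the start for an isoform pair of complex V that diverged over days (*Atp5g1* and *Atp5g3*), an isoform pair of complex IV that differed in the knockdowns (*Cox7b2* and *Cox7b*), and 2 short subunits that fell late (*Uqcr11* of complex III and *Atp5k* of complex V). Each is written 5′ to 3′ on the strand of the gene, and capitals mark exact matches to the motifs named in the next paragraph.
Atp5g1, chr11:96075632-96075731, minus strand: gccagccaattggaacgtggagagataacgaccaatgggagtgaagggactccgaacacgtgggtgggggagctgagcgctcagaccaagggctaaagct
Atp5g3, chr2:73911327-73911426, minus strand: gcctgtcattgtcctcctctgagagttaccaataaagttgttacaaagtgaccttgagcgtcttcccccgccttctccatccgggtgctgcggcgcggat
Cox7b2, chr5:71548206-71548305, minus strand: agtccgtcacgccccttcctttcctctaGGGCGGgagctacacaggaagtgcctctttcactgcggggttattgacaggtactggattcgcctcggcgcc
Cox7b, chrX:106015600-106015699, plus strand: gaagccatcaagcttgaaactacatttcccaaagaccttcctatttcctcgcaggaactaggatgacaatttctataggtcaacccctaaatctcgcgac
Uqcr11, chr10:80406822-80406921, minus strand: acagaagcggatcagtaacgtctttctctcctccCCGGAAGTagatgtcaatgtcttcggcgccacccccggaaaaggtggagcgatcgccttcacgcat
Atp5k, chr5:108434400-108434499, minus strand: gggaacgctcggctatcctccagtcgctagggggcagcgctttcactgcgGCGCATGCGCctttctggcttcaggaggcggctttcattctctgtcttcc

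Both strands of each 300-base window were searched for 5 motifs. The NRF1 core GCATGCGC was found in 10 of 69 member windows (14.5%) and in 5.79% of the windows of other genes. In *Atp5k* it is read on both strands from the same bases, and in *Uqcr11* it crosses the start and lies partly outside the bases printed. The YY1 sequence AAGATGGCG was found in 6 member windows (8.70%), 5 of them of complex I, and in 3.20% of the others. The ETS and GABP sequence CCGGAAGT was in 5 member windows (7.25%) and in 8.59% of the others, and the CRE TGACGTCA in 4 (5.80%) and in 3.34%. The GC box GGGCGG was in 30 member windows (43.5%) against 67.9% of the others, and median GC content was 57.3% against 61.7%. None of the 5 motifs was in the *Atp5g1*, *Atp5g3* or *Cox7b* window. These are letter matches in a fixed window and were not tested.

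Levels were compared between genes per length, as mean rpm over the 20 libraries divided by the median length in kilobases of the annotated coding transcripts. On this scale *Atp5b*, the catalytic beta subunit of complex V, was highest at 1072 rpm per kb. *Cox4i1*, the ubiquitous subunit 4 of complex IV, followed at 568 rpm per kb, and the alpha subunit gene *Atp5a1* stood at 541 rpm per kb. The median member of complex V stood at 183 rpm per kb, that of complex III at 159, complex IV at 138, complex II at 94.2, complex I at 74.7 and the complex I assembly factors at 11.7. The medians of all complexes thus lay above that of the factors that assemble complex I, whose range was 7.52 to 41.8 rpm per kb. Complex II, the only complex without a mitochondrially encoded subunit, spanned 37.7 to 136 rpm per kb. The file listed *Atp5o* over 247290 bases that cover 6 other genes, so no length was used for it. The file's span of *Cox4i1* overlaps another gene model on the same strand, which limits its level.

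Of the isoforms of complex IV known from other tissues, 3 were at or near the limit of detection. *Cox8b*, a muscle isoform, had 0 reads in all 20 libraries, which allows at most 0.109 to 0.439 rpm depending on the library. The muscle isoform *Cox6a2* had 0 to 16 reads and the testis isoform *Cox8c* 0 to 22 reads per library, and these 3 members did not pass the filter. Their partners *Cox8a* and *Cox6a1* were measured at 124 to 250 rpm and at 74.4 to 188 rpm. The highest value of both was in Smarca4.6 on day 5, where *Cox8a* stood at 250 rpm while all other libraries lay between 124 and 152 rpm.

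The 4 largest called differences between day 4 and day 7 were those of isoforms, namely *Cox4i2*, *Atp5g1*, *Cox6b2* and *Cox7b2*. *Atp5g1*, *Atp5g2* and *Atp5g3* encode the c subunit of the ATP synthase rotor and are known to yield the same mature protein from precursors with different import sequences. *Atp5g1* fell 4.33-fold from day 4 to day 7 (log2 difference -2.11, SE 0.16, adjusted *p* = 1.68e-07, limma). On day 4 *Atp5g1* stood at 127 rpm in Nons, 128 and 117 rpm in Smarcc1.6 and Smarcc1.7, and 134 and 131 rpm in Smarca4.4 and Smarca4.6. On day 7 the same series stood at 24.5, 31.7, 26.0, 35.3 and 37.0 rpm. Every day 7 library lay below every day 4 library, and *Atp5g1* was also the only member called lower on day 5 than on day 4 (-0.63, SE 0.16, adjusted *p* = 0.00866). That early call ended without Smarca4.4 or under quantile normalization, while the day 7 call held in all 15 alternatives tried.

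*Atp5g2* moved the other way, from 58.9 to 78.0 rpm on day 4 to 89.5 to 123 rpm on day 7 (log2 difference 0.75, SE 0.19, adjusted *p* = 0.00354). *Atp5g3*, the most abundant of the trio, went from 261 to 279 rpm to 160 to 218 rpm (-0.43, SE 0.17, adjusted *p* = 0.0395), a call that ended in 7 of 15 alternatives. In reads, *Atp5g1* was 44.8% to 49.9% of *Atp5g3* on day 4 and 11.2% to 19.2% on day 7. *Atp5g2* was 22.3% to 28% of *Atp5g3* on day 4 and 53.9% to 62.6% on day 7. The ratios to *Atp5g3* therefore moved in opposite directions, with no overlap of the 5 series between the days for either ratio. Transcript lengths differ between the genes, so only the change of these ratios can be read and not their level.

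In complex IV an isoform rose while its partner did not pass the test. *Cox6b2*, the testis isoform of *Cox6b1*, rose 4.21-fold from day 4 to day 7 (log2 difference 2.07, SE 0.24, adjusted *p* = 7.9e-06). It stood at 8.88 rpm in Nons, 6.80 and 6.39 rpm in Smarcc1.6 and Smarcc1.7, and 7.30 and 7.58 rpm in Smarca4.4 and Smarca4.6 on day 4. On day 7 it stood at 39.2, 30.8, 25.8, 28.5 and 30.5 rpm in that order. All 5 series thus rose to a similar level, whereas *Cox6b1* was at 49.9 to 58.5 rpm on day 4 and 28.9 to 68.2 rpm on day 7 (-0.21, SE 0.19, adjusted *p* = 0.353). The median ratio of *Cox6b2* to *Cox6b1* reads went from 13.6% on day 4 through 20.6% and 42.5% to 70.6% on day 7. Of 6 germ cell markers tested, 1 was called higher and 2 lower on day 7, beside 35.7% and 28.8% of all genes. Their sum was 531 to 961 rpm on day 4 and 171 to 409 rpm on day 7.

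*Cox4i2*, the subunit 4 isoform known from lung and low oxygen, rose by 2.59 (SE 0.31, adjusted *p* = 9.11e-06) but from very few reads. It had 3 to 25 reads per library on day 4 and 22 to 83 on day 7, and with 1 added to the rpm values the log2 difference was 1.37. At its highest it was 1.11% of the reads of *Cox4i1*, which did not pass the test between these days (0.13, SE 0.21, adjusted *p* = 0.611). *Cox7a1*, the isoform of heart and skeletal muscle, stood at 4.44 to 7.25 rpm on day 4 and 7.55 to 16.8 rpm on day 7 (1.08, SE 0.38, adjusted *p* = 0.0257). This call ended with centring, with quantile normalization and without Smarca4.4, where the adjusted *p* reached 0.194. Beside it, the 8 muscle markers summed to 12.7 to 15.6 rpm on day 4 and 19.6 to 52.9 rpm on day 7, but the list was mixed. *Myh7* rose by 2.37 (adjusted *p* = 5.43e-05), and *Myl7*, *Actc1* and *Nkx2-5* had more reads on day 7 in every series. *Actn2* instead went from 60 to 79 reads per library to 12 to 57, and *Ckm* from 21 to 37 reads to 0 to 15. The part of these markers in the result was not tested. *Cox7a2*, the isoform of most tissues, fell from 96.1 to 140 rpm to 45.3 to 85.5 rpm (-0.85, SE 0.23, adjusted *p* = 0.00541). *Cox7a2l*, which encodes a related protein that joins complexes III and IV into supercomplexes, rose from 82.5 to 108 rpm to 184 to 218 rpm (1.15, SE 0.18, adjusted *p* = 0.000125).

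*Ndufa4l2*, a paralogue of the complex IV subunit gene *Ndufa4* that is known to be induced by low oxygen, peaked in group means on day 5. It stood at 4.03 to 8.08 rpm on day 4, 12.7 to 42.8 rpm on day 5 and 3.02 to 7.73 rpm on day 7. In Smarcc1.6 its reads instead rose relative to *Ndufa4* on every day, from 2.59% on day 4 through 3.64% and 5.15% to 6.59% on day 7. The rise to day 5 (1.87, SE 0.25, adjusted *p* = 0.000147) and the fall from day 6 to day 7 (-0.98, SE 0.25, adjusted *p* = 0.0149) both passed the test, although the fall had an adjusted *p* of 0.0515 without Smarca4.6. The isoforms are plotted by series and day.

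**Figure D1:**
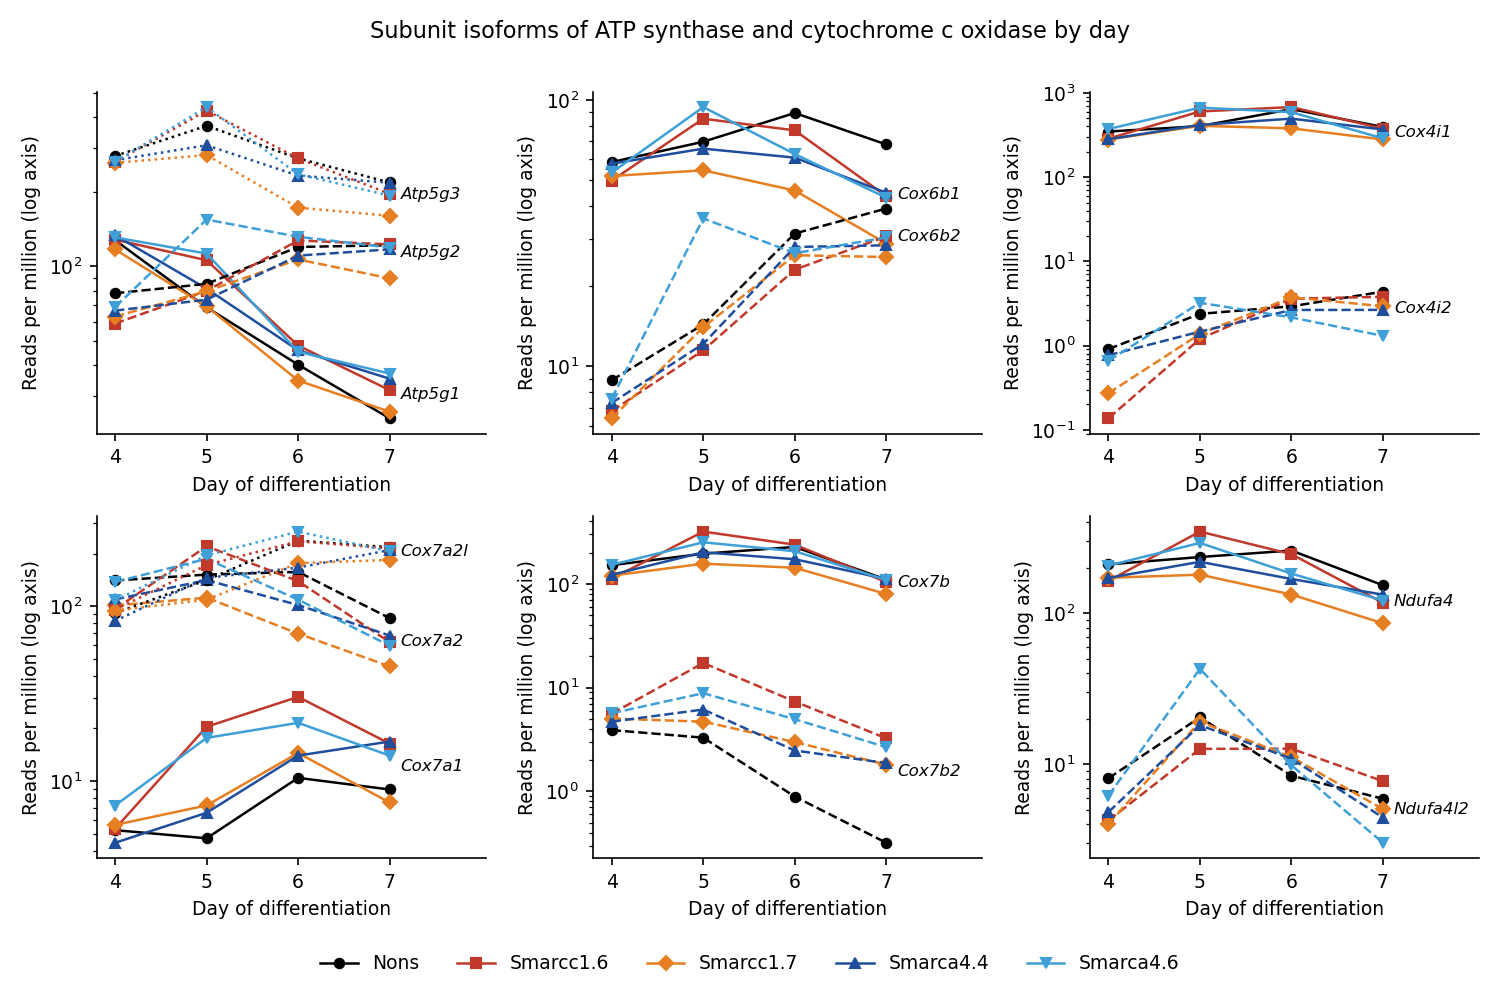
Level of subunit isoforms in each of the 5 series (colours) against day of differentiation, in rpm on a log axis, with each gene named at its lines. *Atp5g1* lies above *Atp5g2* on day 4 and below it on days 6 and 7 in every series, crossing by day 5 in Nons, Smarca4.6 and Smarcc1.7, *Cox6b2* rises from 6.39 to 8.88 rpm to 25.8 to 39.2 rpm, and the Nons line of *Cox7b2* lies below those of all hairpins.

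Between day 4 and day 7, members moved in both directions. Of 87 members, 12 (13.8%) rose, beside 35.7% of all genes tested, and 25 (28.7%) fell, beside 28.8%. Their median log2 difference was -0.11, beside 0.08 for all genes. The share that fell was thus near that of the whole table and the share that rose was below it, without a test of either difference. With the trend over transcript length removed, an alternative chosen after seeing the data, 39 of 86 members (45.3%) fell beside 36.9% of all genes in that fit, and 12 (14%) rose beside 35.7%. Of the 37 calls, 22 held in every alternative tried. The contrast was averaged over Nons and the 2 knockdowns with equal weight. Over the same days the 6 fibroblast markers went from a sum of 6.83 to 11.3 rpm to 27.2 to 122 rpm, mostly through *Col1a1* and *Col1a2*. These 2 genes had 30 to 53 and 4 to 29 reads per library on day 4, and 269 to 1320 and 117 to 1129 on day 7. *Thy1* went from 76 to 133 reads to 31 to 95, and *Pdgfra* from 24 to 56 reads to 29 to 123. *Col3a1* had at most 9 reads, and *Lum* was at 0 reads in 15 libraries. The part of these markers in the member values was not tested.

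Complex III carried the largest share of falls, beside the 28.8% of all genes that fell. Of its 8 members 6 fell, namely *Uqcr11*, *Uqcrq*, *Uqcrb*, *Uqcrh*, *Uqcr10* and the core protein gene *Uqcrc1*, and the median log2 difference was -0.66. *Uqcr11*, a small accessory subunit, stood at 47.2 to 72.1 rpm on day 4 and 20.3 to 34.6 rpm on day 7 (-1.02, SE 0.24, adjusted *p* = 0.00233). The other core protein gene, *Uqcrc2*, was the 1 member of complex III that rose, from 186 to 225 rpm to 244 to 313 rpm (0.46, SE 0.18, adjusted *p* = 0.0344). This call ended in 6 of 15 alternatives, among them leaving out either Smarca4 hairpin, with an adjusted *p* of up to 0.269. *Uqcrc1* went from 326 to 384 rpm to 200 to 276 rpm (-0.55, SE 0.16, adjusted *p* = 0.00724). Members named outside the rule for named genes were picked with their values in view.

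In complex V 7 of 15 fell and 2 rose, beside 28.8% and 35.7% of all genes. *Atp5k*, subunit e of the membrane part that holds synthase dimers together, fell from 43.5 to 88.3 rpm to 15.2 to 29.7 rpm (-1.47, SE 0.29, adjusted *p* = 0.000717). *Atp5j2*, *Atp5l* and *Atp5j* of the membrane part and stalk and the catalytic *Atp5b* fell as well, and *Atp5d*, the delta subunit of the central stalk, rose by 0.47 (SE 0.15, adjusted *p* = 0.0122). In complex IV 4 of 17 tested rose and 4 fell, all 4 rises being the isoforms *Cox4i2*, *Cox6b2*, *Cox7a1* and *Cox7a2l* described before.

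In complex I 4 of 36 rose and 4 fell, beside 35.7% and 28.8% of all genes, with a median of 0.02. *Ndufa13*, an accessory subunit also known as Grim19, rose from 42.8 to 62.6 rpm to 65.6 to 104 rpm (0.74, SE 0.19, adjusted *p* = 0.0037). *Ndufs1* and *Ndufv1*, iron-sulfur and flavin-binding subunits of the arm that oxidises NADH, fell by 0.65 (SE 0.12, adjusted *p* = 0.000455) and by 0.43 (SE 0.15, adjusted *p* = 0.0256). The assembly factors *Ndufaf2* and *Ndufaf4* fell further than any complex I subunit, from 27.6 to 32.1 rpm to 12.1 to 15.4 rpm (-1.16, SE 0.20, adjusted *p* = 0.000186) and from 36.4 to 41.6 rpm to 15.7 to 20 rpm (-1.13, SE 0.19, adjusted *p* = 0.000227). The 4 members of complex II did not pass the test, with log2 differences from -0.36 to 0.37.

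**Figure D2:**
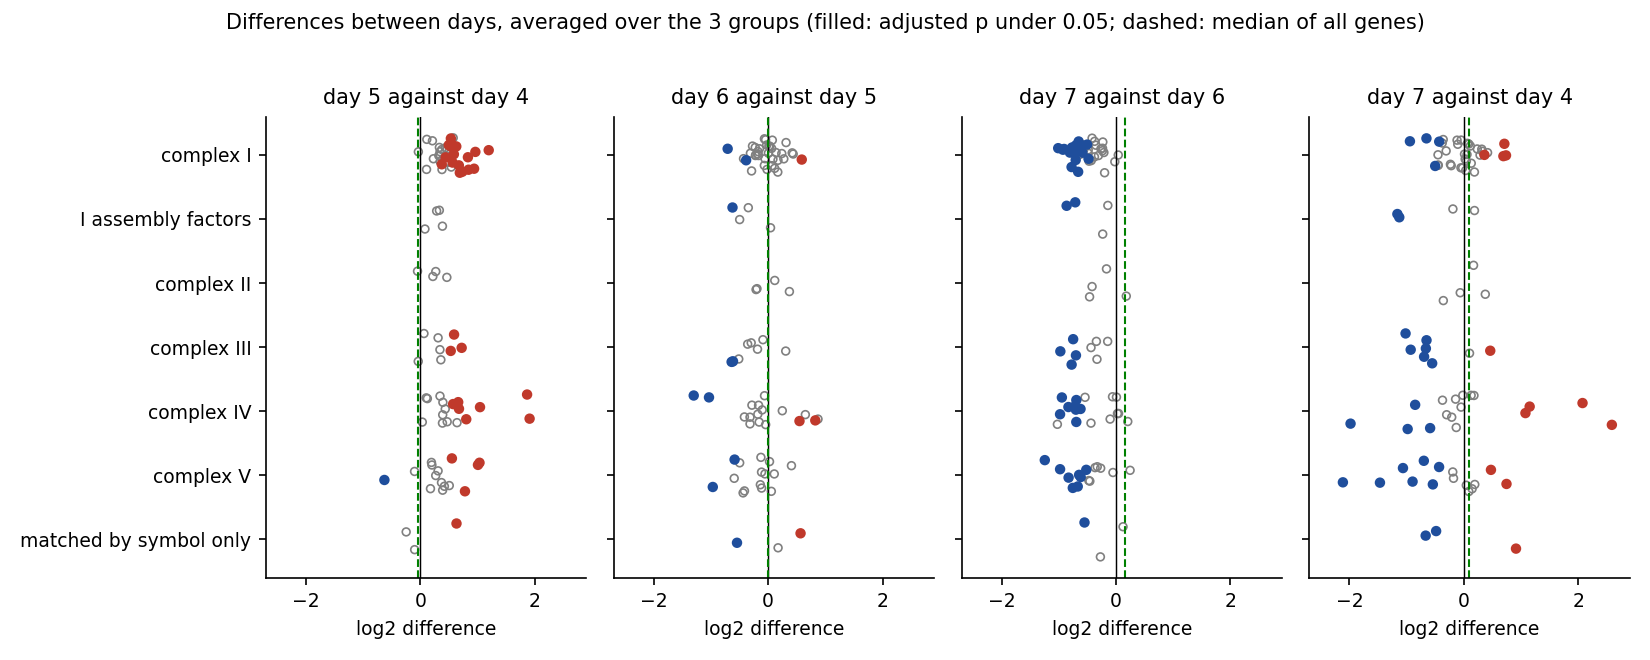
Log2 difference between days for each tested member, grouped by complex, in 4 panels. Filled points passed an adjusted *p* of 0.05 (red higher, blue lower), and the dashed line is the median of all genes tested. The members of all complexes lie mostly right of that line on day 5 against day 4 and left of it on day 7 against day 6, while day 7 against day 4 spreads to both sides.

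The end points conceal a rise and a fall in between. From day 4 to day 5, 32 members (36.8%) rose and 1 fell, beside 19.5% and 19.2% of all genes, and the median difference was 0.40 against -0.03. From day 5 to day 6, 4 rose and 10 fell, beside 17.0% and 15.3%, with a median of -0.11 against -0.01. From day 6 to day 7, 38 (43.7%) fell and none rose, beside 10.6% and 16.9%, with a median of -0.49 against 0.15. In the last step the 8 members with a difference above 0 reached at most 0.25, and limma-voom on the recovered reads also called 38 lower and 0 higher.

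The rise to day 5 involved 17 of 36 complex I subunits, 3 of 8 in complex III, 7 of 17 in complex IV and 4 of 15 in complex V. Among all genes 19.5% rose in this step. *Ndufv3*, a small subunit of the NADH-oxidising arm, stood at 22.9 to 29.7 rpm on day 4 and 43.2 to 86.2 rpm on day 5 (2.29-fold, SE 0.18 on the log2 scale, adjusted *p* = 0.000334). *Atp5o*, the stalk subunit that confers oligomycin sensitivity, went from 144 to 156 rpm to 253 to 424 rpm (1.04, SE 0.20, adjusted *p* = 0.00192), within the limit on its gene model given before. Both were above all day 4 libraries in all 5 day 5 libraries, as were 32 members in all, beside 14.7% of all genes. In each of the 5 series 54 members were higher on day 5 than on day 4, beside 23.5% of all genes.

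The fall to day 7 involved 15 complex I subunits, 2 of their assembly factors, 4 members of complex III, 8 of complex IV and 8 of complex V. Among all genes 10.6% fell in this step. *Atp5k* fell most, from 35.4 to 85.8 rpm on day 6 to 15.2 to 29.7 rpm (-1.24, SE 0.29, adjusted *p* = 0.00987). *Ndufb2*, an accessory subunit of the complex I membrane arm, went from 37.8 to 77.6 rpm to 24.7 to 33.2 rpm (-1.01, SE 0.20, adjusted *p* = 0.00391), and *Atp5e*, the epsilon subunit of complex V, from 166 to 375 rpm to 82.3 to 159 rpm (-0.98, SE 0.28, adjusted *p* = 0.024). All 5 day 7 libraries lay below all 5 day 6 libraries for 23 members, beside 5.64% of all genes. In each series 64 members were lower on day 7 than on day 6, beside 19.7%.

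The steps differed in size between series. The median member rose from day 4 to day 5 by 0.24 in Nons, 0.92 in Smarcc1.6, 0.21 in Smarcc1.7, 0.35 in Smarca4.4 and 0.72 in Smarca4.6. From day 6 to day 7 it fell by 0.52, 0.74, 0.42, 0.22 and 0.62 in the same order. The direction was shared by all 5 series in both steps, and Nons alone rose once more from day 5 to day 6 (0.12) while the 4 hairpin series fell (-0.13 to -0.45). Without the Smarca4.6 series the median step to day 7 was still -0.44, beside 0.11 for all genes. The calls of the single steps depended on which hairpins entered the fit, and were fewest without a Smarca4 hairpin. Fewer of all genes were then called as well. In those fits the spread comes from the Smarcc1 pair alone, so fewer calls need not mean a smaller step. Without Smarca4.4, Smarcc1.6 or Smarcc1.7 the median step to day 7 was -0.55, -0.43 and -0.56. The median step to day 5 was 0.50, 0.31 and 0.56 in the same order, and 0.36 without Smarca4.6.

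**Figure D3:**
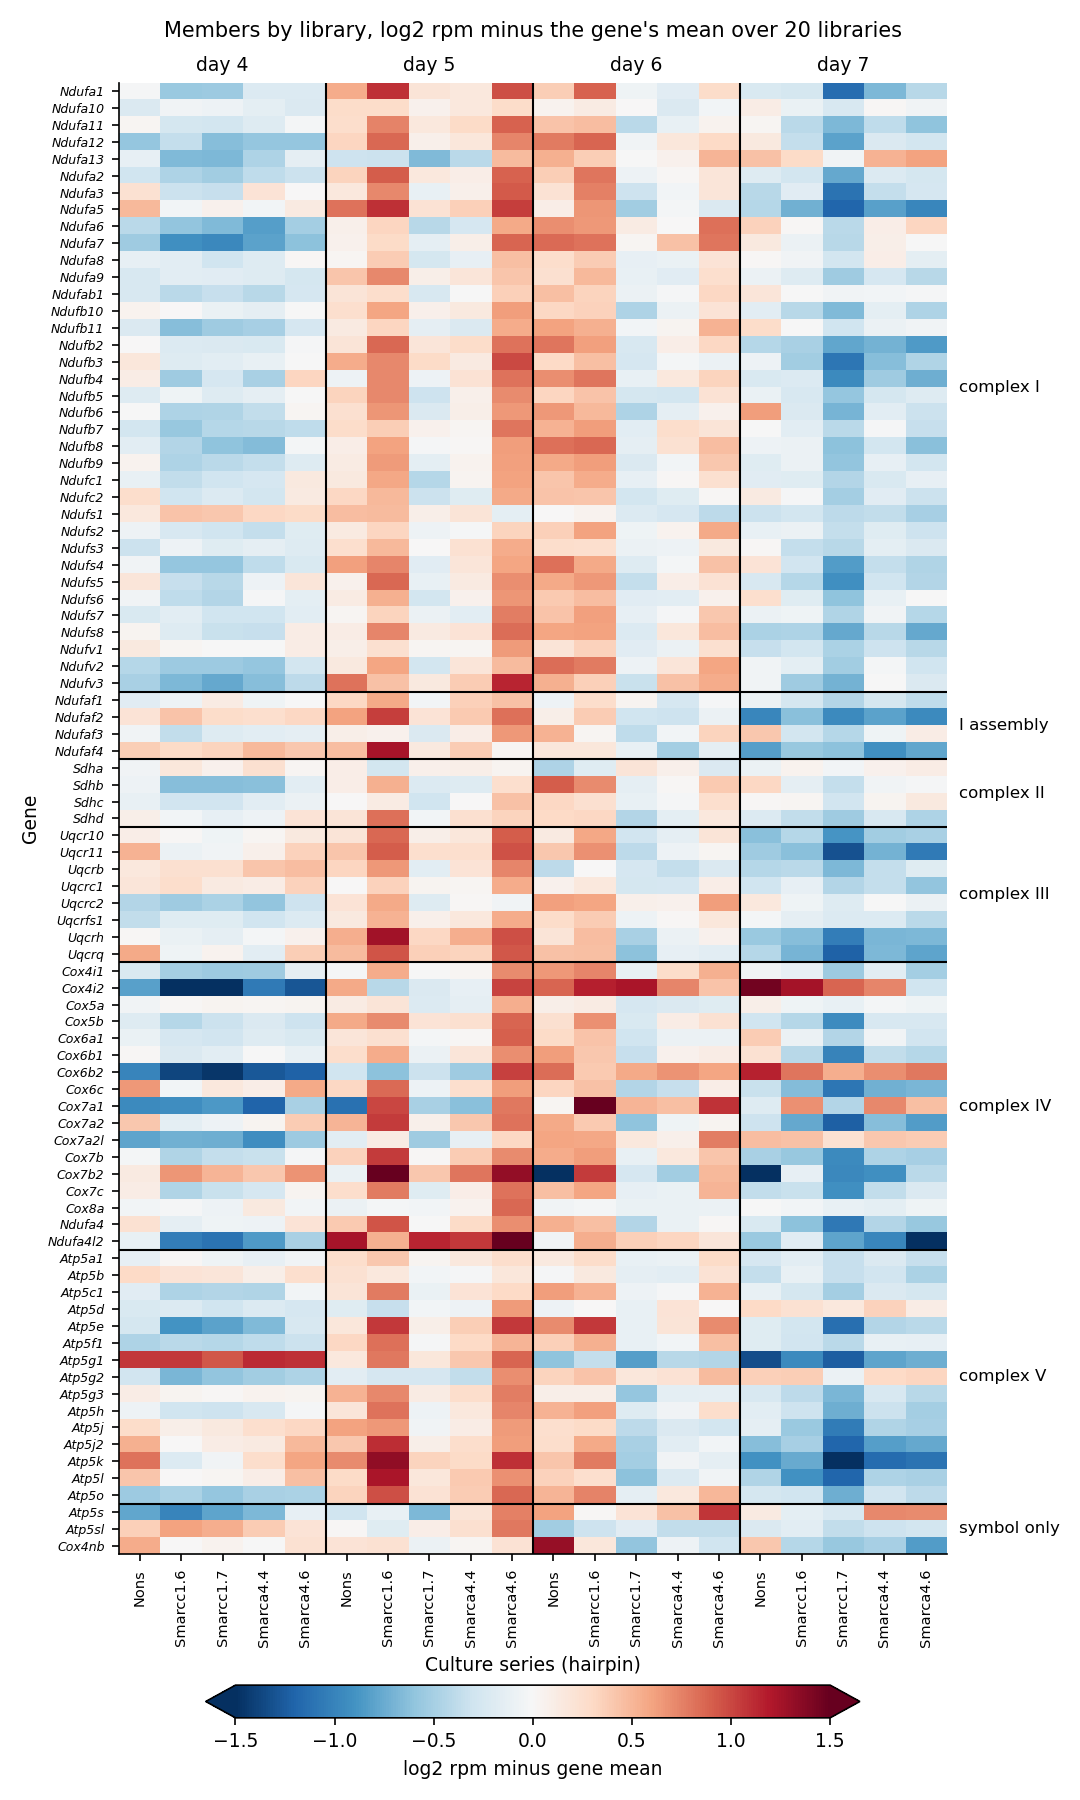
Heatmap of the 87 tested members (rows, grouped by complex) in the 20 libraries (columns, grouped by day), showing log2 rpm minus the mean of the gene over all libraries from blue (lower) to red (higher). Day 5 of Smarcc1.6 and Smarca4.6 and day 6 of Smarcc1.6 and Nons are the reddest columns and day 7 of Smarcc1.7 the bluest, and the rows of *Atp5g1*, *Cox6b2*, *Cox4i2*, *Cox7b2* and *Sdha* depart from the common pattern.

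Members moved together over the 20 libraries, which share depth, library and length effects. The median pairwise correlation of log2 rpm was 0.65 over all tested members, 0.80 within complex I, 0.76 within complex III, 0.63 within complex V, 0.47 within complex IV and -0.04 within complex II. *Atp5h*, the d subunit of the synthase stalk, followed the mean of all other members most closely (r = 0.99). *Sdha*, the flavoprotein of complex II that also takes part in the tricarboxylic acid cycle, ran against it (r = -0.54). *Sdha* was nearly level, at 186 to 228 rpm on day 4, 159 to 206 rpm on day 5, 140 to 220 rpm on day 6 and 182 to 209 rpm on day 7. These correlations are descriptions over 20 libraries from 5 series.

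The wave ran with transcript length across the whole table. Members have short transcripts, with a median of 751 bases beside 2742.5 bases for the other tested genes with an annotated length. Among those other genes, the 243 with transcripts below 700 bases had a median log2 difference of 0.43 from day 4 to day 5, and the 5486 with 2800 bases or more had -0.23. From day 6 to day 7 the medians were -0.47 and 0.35, with a rank correlation of 0.39 between length and difference across genes, which are not independent replicates. From day 4 to day 7 the medians were 0.14 and 0.10 and the correlation 0.01. Short transcripts of other genes thus rose to day 5 and fell to day 7 as members did, and between the end points length and change were nearly unrelated.

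The 5 libraries in which members stood highest were also the 5 in which other short transcripts stood highest over long ones, namely days 5 and 6 of Smarcc1.6, days 5 and 6 of Smarca4.6 and day 6 of Nons. An alternative chosen after seeing the data removed the trend over length from each library. The median member difference from day 4 to day 5 then went from 0.40 to 0.06, with 20 of 86 members higher (23.3%) and 6 lower (6.98%), beside 22.2% and 23.5% of all genes in that fit. The share that rose was then near that of the whole table. From day 6 to day 7 the median went from -0.49 to -0.24, with 6 members higher (6.98%) and 31 lower (36%), beside 16.3% and 16%. From day 4 to day 7 it was -0.18, with the counts given before. The calls of *Atp5g1*, *Cox6b2*, *Cox4i2*, *Cox7a1*, *Cox7a2l* and *Cox7b2* between day 4 and day 7 all held in that fit. What moved short transcripts in these libraries was not tested.

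The same steps were counted in 3 other gene families, whose median transcripts had 1221 bases (mitochondrial ribosomal proteins), 1370 bases (proteasome) and 766 bases (cytosolic ribosomal proteins). From day 4 to day 5, 17 of 76 mitochondrial ribosomal protein genes rose (22.4%) and 2 fell (2.63%), beside the 19.5% and 19.2% of all genes. Of 48 tested proteasome genes 12 rose (25%) and 2 fell (4.17%), and of 84 cytosolic ribosomal protein genes 61 rose (72.6%) and 1 fell (1.19%). The first 2 families thus rose at a share near that of all genes. From day 6 to day 7, 35.5%, 39.6% and 27.4% of the families fell, beside 10.6% of all genes. From day 4 to day 7, when 35.7% of all genes rose and 28.8% fell, these families parted. Of 76 mitochondrial ribosomal protein genes 39 fell, and of 48 proteasome genes 26 fell. Of 84 cytosolic ribosomal protein genes 51 rose and 5 fell. Reads in the members made up 0.857% to 1.73% of a library.

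**Figure D4:**
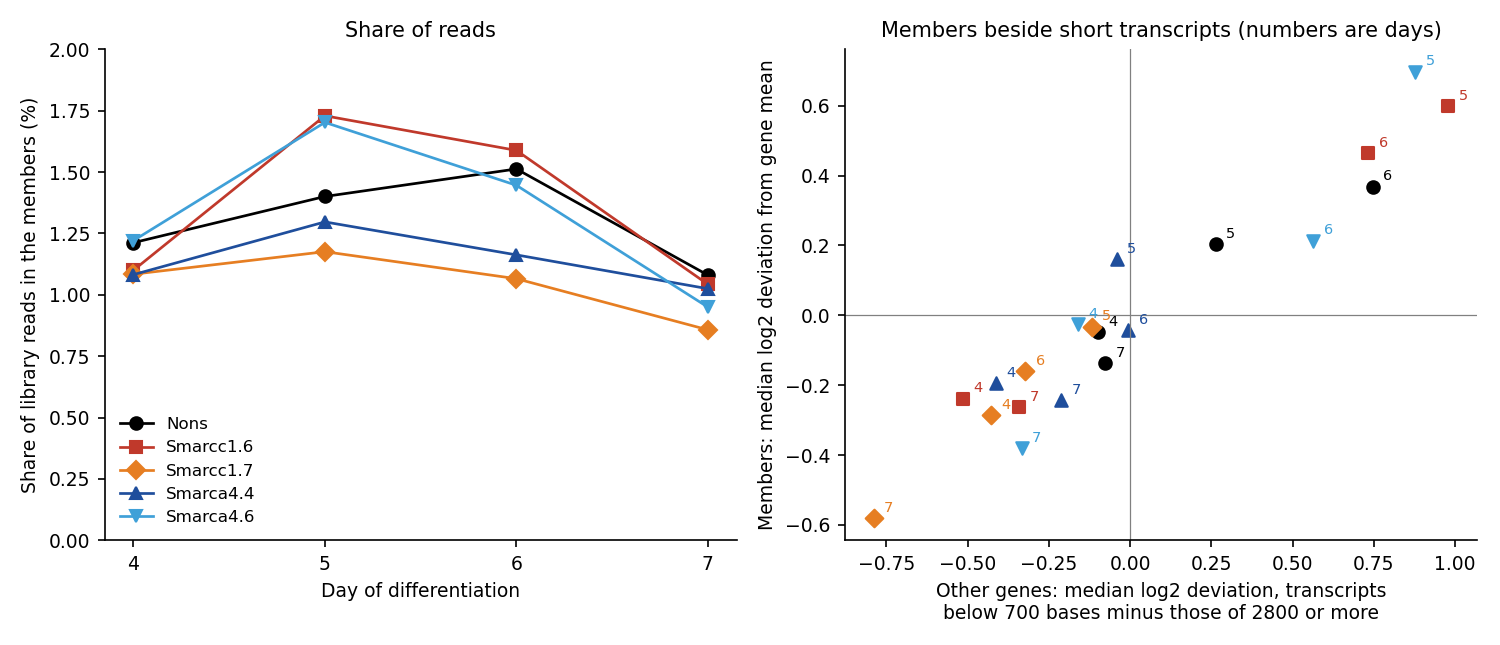
Left, share of library reads (percent, axis from 0) that fell in the 90 members against day, 1 line per series. Right, median log2 deviation of the tested members from their gene means against the difference in median deviation between other genes with transcripts below 700 bases and those of 2800 bases or more, 1 point per library, labelled by day. The share peaks on day 5 at 1.73% in Smarcc1.6 and on day 6 at 1.51% in Nons, and the libraries with the highest members lie furthest to the right on the length axis.

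Knockdown of *Smarcc1* or *Smarca4* changed few members. Averaged over days, 1 member was called higher and 1 lower in Smarcc1 knockdown against Nons, beside 7.54% and 3.08% of all genes. In Smarca4 knockdown against Nons 1 was higher and 1 lower, beside 4.75% and 1.96%. Both contrasts share the Nons libraries, of which there is 1 a day. Members lay below Nons more often than above. In Smarcc1 knockdown 75 of 87 had a negative difference (median -0.19, all genes 0.06), and in Smarca4 knockdown 68 (median -0.09, all genes 0.06). Members move together over libraries, so these counts are not independent, and the effect of transcript length is still in them. With the length trend removed, a fit picked with results in view, 2 of 86 members were called higher and 5 lower in Smarcc1 knockdown. All genes in that fit stood at 8.86% and 7.38%, the members at 2.33% and 5.81%. For Smarca4 knockdown the members stood at 2.33% and 3.49%, beside 6.45% and 5.04%. In the same contrasts 6 and 4 of the 8 pluripotent cell markers were called higher, and their part in the result was not tested.

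*Cox7b2*, the testis isoform of the complex IV subunit gene *Cox7b*, was higher than same-day Nons in all 8 Smarcc1 and all 8 Smarca4 knockdown libraries. In Nons it stood at 3.89, 3.29, 0.89 and 0.32 rpm on days 4, 5, 6 and 7, from 107, 65, 14 and 6 reads. Smarcc1.6 had 5.61, 17.3, 7.34 and 3.25 rpm and Smarcc1.7 5.03, 4.70, 2.98 and 1.81 rpm. It therefore fell with time in every group after day 5 and was highest in Smarcc1.6 from day 5 on. Smarca4.4 had 4.70, 6.15, 2.48 and 1.88 rpm and Smarca4.6 had 5.66, 8.83, 4.96 and 2.67 rpm. The log2 difference was 1.80 for Smarcc1 knockdown (SE 0.36, adjusted *p* = 0.00586) and 1.59 for Smarca4 knockdown (SE 0.36, adjusted *p* = 0.0194). The 4 days of a hairpin share that hairpin and are not independent samples. With the series as a block the adjusted *p* was 0.0247 for Smarcc1 and 0.0774 for Smarca4 knockdown. The Smarca4 call ended in 8 of 18 alternatives, among them leaving out either hairpin. The Smarcc1 call ended under quantile normalization and without day 7, where Nons had 6 reads.

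*Cox7b2* lies at chr5:71442824-71548205 (mm10, minus strand), and its partner *Cox7b* was measured at 79.7 to 319 rpm. Of the 6 germ cell markers, 4 were called higher in Smarcc1 knockdown and 2 in Smarca4 knockdown, beside 7.54% and 4.75% of all genes. None was at 0 reads, and they summed to 171 to 531 rpm in Nons, 250 to 961 rpm in Smarcc1 knockdown and 287 to 854 rpm in Smarca4 knockdown. Their part in the *Cox7b2* result was not tested.

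The member called lower in both knockdowns was *Cox4nb*, which shares only its name with complex IV. Nons had 211, 165, 357 and 189 rpm over the 4 days, Smarcc1.6 had 144, 168, 162 and 107 rpm and Smarcc1.7 had 148, 135, 95.2 and 96.8 rpm. Smarca4.4 had 143, 146, 137 and 102 rpm and Smarca4.6 had 168, 168, 117 and 80.5 rpm. The libraries were below same-day Nons in 7 of 8 cases in each knockdown, with day 5 the exception, and the Nons library of day 6 stood above all others. The log2 difference was -0.77 in both (SE 0.15, adjusted *p* = 0.00447 and 0.00746). The Smarca4 call ended in 5 of 19 alternatives, namely without either Smarca4 hairpin, without day 6 or day 7, and with the block (adjusted *p* = 0.0598). The Smarcc1 call ended without day 7 (adjusted *p* = 0.0641) and held with the block (adjusted *p* = 0.0359). *Cox4nb* lies next to *Cox4i1*, and both overlap another gene model, so reads between these genes are uncertain because the use of strand is not stated.

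Between the knockdowns, *Atp5s* was the single member called, lower in Smarcc1 than in Smarca4 knockdown, beside 1.54% of all genes called lower and 2.55% called higher. It encodes coupling factor B, which is not a subunit of the synthase, as given before. Smarcc1.6 and Smarcc1.7 stood at 9.17 and 10.5 rpm on day 4, 16.9 and 11.4 rpm on day 5, 18.4 and 20.9 rpm on day 6, and 16.4 and 15.4 rpm on day 7. Smarca4.4 and Smarca4.6 stood at 11.4 and 16.7 rpm, 20.8 and 30.8 rpm, 24.8 and 38.4 rpm, and 30.1 and 29.9 rpm. The pairs did not overlap on any day. The log2 difference was -0.73 (SE 0.14, adjusted *p* = 0.0131), and the call ended with the block (adjusted *p* = 0.0899) and without Smarcc1.6, Smarcc1.7, Smarca4.6 or day 7, with an adjusted *p* of at most 0.214 over the 19 alternatives.

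**Figure D5:**
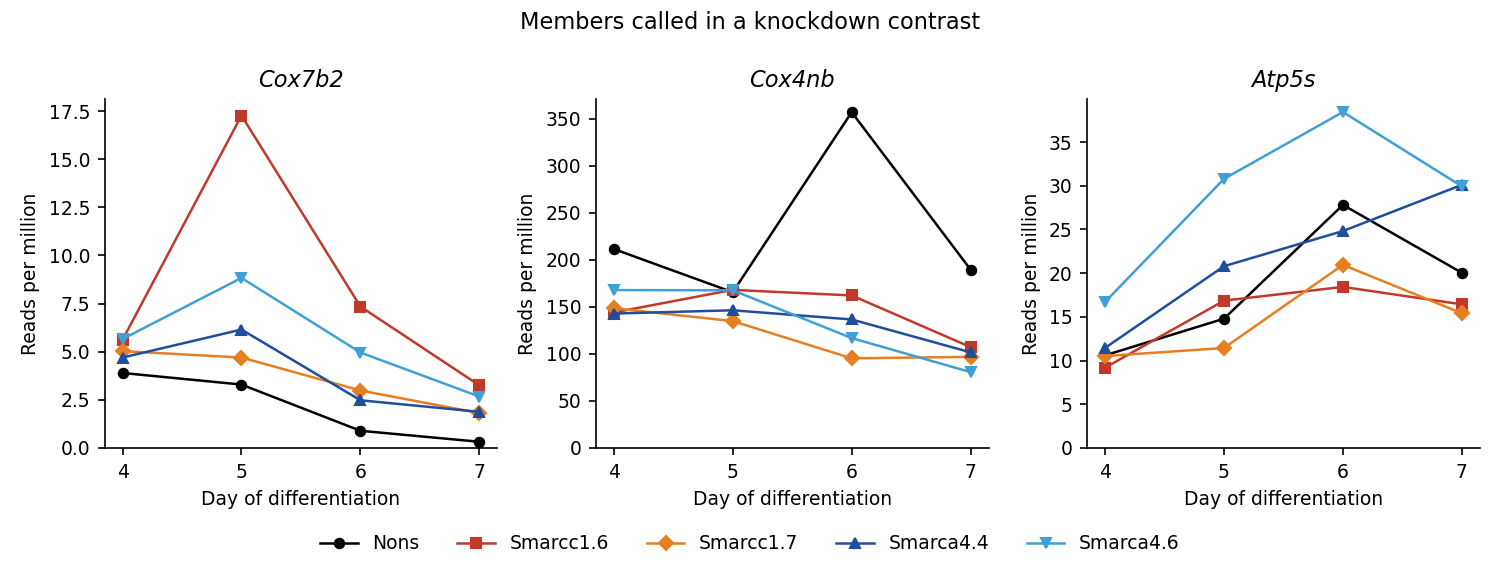
Level in rpm of the 3 members called in a knockdown contrast, by day, 1 line per series, axes from 0. *Cox7b2* is lowest in Nons on every day, *Cox4nb* is highest in Nons on days 4, 6 and 7, and *Atp5s* is higher in both Smarca4 hairpins than in both Smarcc1 hairpins on every day.

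Hairpins of the same gene differed. The median member stood below same-day Nons on all 4 days in Smarcc1.7 (-0.18 to -0.57). In Smarcc1.6 it was above Nons on days 5 and 6 (0.35 and 0.09) and below on days 4 and 7 (-0.21 and -0.10). Smarca4.6 was above on day 5 (0.43) and below on the other days (-0.01 to -0.20), and Smarca4.4 was below throughout (-0.10 to -0.41). Leaving out Smarcc1.6 moved the median difference of the members in Smarcc1 knockdown from -0.19 to -0.40, beside 0.10 for all genes. Leaving out the day 5 libraries of Smarcc1.6 and Smarca4.6, chosen after seeing the data, gave -0.28 beside 0.08. Without Smarcc1.7 the median difference of the members was 0.04, the same as for all genes. Both Smarcc1 hairpins thus lay below Nons on days 4 and 7 and parted on days 5 and 6. Each value sets 1 library against 1 Nons library, and the effect of transcript length is still in it. Other transcripts below 700 bases deviated from those of 2800 bases or more by 0.98 and 0.73 in Smarcc1.6 on days 5 and 6. The values were -0.12 and -0.32 in Smarcc1.7, and 0.26 and 0.75 in Nons. The part of length in the parting was not tested.

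The change from day 4 to day 7 was then compared between each knockdown and Nons. By limma 0 members differed in this respect for either knockdown, beside 0.459% of all genes for Smarcc1 and 0.0827% for Smarca4, and limma-voom also called 0. Members with an unadjusted *p* under 0.05 are given as a description, since some genes pass that cut without any difference. *Cox7b2* had a difference of the changes of 2.47 (SE 1.02, adjusted *p* = 0.522) in Smarcc1 and 2.40 (SE 1.02) in Smarca4 knockdown. *Cox4i2* had 1.85 (SE 0.80) in Smarcc1 knockdown. None of these passed the test. With 1 Nons library on each day these differences carry wide errors, and smaller ones were not detectable.

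Other genes of energy metabolism were counted from lists. Of 39 further electron transfer and assembly genes, 5 rose and 17 fell from day 4 to day 7, beside 35.7% and 28.8% of all genes. *Pdss1* and *Coq4*, which act in ubiquinone synthesis, fell by 1.98 (SE 0.16, adjusted *p* = 2.62e-07) and by 1.75 (SE 0.15, adjusted *p* = 4.03e-07), while *Coq2* of the same pathway rose by 1.40 (SE 0.14, adjusted *p* = 2.81e-06). Of 18 genes of the tricarboxylic acid cycle and its entry, 6 rose and 5 fell, which is near the shares of all genes. *Pdhb*, of the pyruvate dehydrogenase that feeds the cycle, fell by 1.19 (SE 0.16, adjusted *p* = 2.62e-05), and *Idh2*, the mitochondrial isocitrate dehydrogenase, rose by 0.88 (SE 0.18, adjusted *p* = 0.000839).

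*Pdha1*, the alpha subunit of pyruvate dehydrogenase, was the 1 gene of that list called in a knockdown, by -0.42 (SE 0.11, adjusted *p* = 0.0268) in Smarcc1 and -0.74 (SE 0.11, adjusted *p* = 0.00162) in Smarca4 knockdown. Of 18 glycolysis genes, 9 rose and 3 fell from day 4 to day 7, beside 35.7% and 28.8% of all genes. *Aldoc*, an aldolase, rose by 3.04 (SE 0.16, adjusted *p* = 9.36e-09), and the glucose transporter gene *Slc2a3* by 2.91 (SE 0.19, adjusted *p* = 5.75e-08).

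Of 18 tested regulators of mitochondrial genes, 4 rose and 11 fell over the same days, beside 35.7% and 28.8% of all genes. *Esrrb*, a nuclear receptor of pluripotent cells and a relative of the receptors that drive respiratory genes, fell by 3.54 (SE 0.20, adjusted *p* = 1.85e-08). *Myc* fell by 3.10 (SE 0.32, adjusted *p* = 2.81e-06), and *Polg*, the mitochondrial DNA polymerase, rose by 1.41 (SE 0.16, adjusted *p* = 6.78e-06). *Ppargc1a*, a coactivator known from muscle and brown fat, had 0 to 2 reads per library. *Esrrb* was also higher than Nons in both knockdowns, by 1.84 (SE 0.19, adjusted *p* = 6.9e-05) and by 1.24 (SE 0.19, adjusted *p* = 0.00181).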

How the data were processed

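RNA-seq libraries of 20 cultures were analysed, and those of Nons replicate 2 (4 samples by label) were not used here. The authors used trim_galore for trimming, tophat or hisat2 for alignment (genome mm10) and SeqMonk for quantification, and deposited log2 rpm per gene. Annotation release and use of strand are not given in the sources used here. The deposited values gave back whole reads (tolerance 0.1), with 0.9 reads standing for 0. Libraries held 6829596 to 27472885 reads, and the limits given for 0 reads cover counting error only.

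Groups follow the sample titles, although the genotype label of the Smarca4 libraries names a Smarcc knockdown. Genes whose mean log2 rpm reached 0 were fitted with limma 3.58.1 in R 4.3.3 (limma-trend) on 12 means of group and day with 8 residual degrees of freedom. Calls used a Benjamini-Hochberg adjusted p of 0.05 over all 13296 genes. Errors measure the spread between hairpins of a single cell line. The fit was tested on simulated data in which libraries of a series shared no effect. That test cannot judge *p*-values where days of a hairpin are not independent. Named genes were the hairpin targets, the highest member of each complex, up to 5 rises and 5 falls per contrast with 1 sign in every same-day comparison or series (all calls where 10 or fewer), the isoforms, the members below the filter, and up to 3 called genes per other list. The members and lists were chosen with earlier results of these data known. Transcript length was the median spliced length of basic coding transcripts in GENCODE. Reads of processed pseudogenes may be shared with their parent genes. Alternatives covered filters, pseudocount, normalization, limma-voom, a block, thinning and left-out libraries.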

Additional observations from a re-analysis of the deposited data

How the results depend on the processing

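Counts here are members called of those tested. Leaving out 1 hairpin at a time gave 2 to 11 members for Smarcc1 knockdown, 0 to 2 for Smarca4 knockdown, 0 to 1 between the knockdowns, 26 to 40 for day 7 against day 4, 9 to 51 for day 5 against day 4, 4 to 11 for day 6 against day 5 and 0 to 53 for day 7 against day 6. In these fits the lone library is assumed to vary like the other groups. The number of all genes called changed between settings as well, so these counts are no result about the members. Smarcc1 knockdown gave 1 with a mean of at least 10 rpm or quantile normalization, 4 without the smallest library, 6 without day 5 and 0 without day 7. Smarca4 knockdown gave 1 with a mean of at least 10 rpm, rpm + 1, quantile normalization or limma-voom, and 0 without day 6 or day 7. Smarcc1 against Smarca4 knockdown gave 3 with no filter, 4 without the smallest library and 0 without day 7. Day 6 against day 5 gave 9 with centring on the median gene and 5 with limma-voom.

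When series entered as a replicate block, Smarca4 knockdown gave 0, Smarcc1 against Smarca4 knockdown 0, Smarcc1 knockdown 2, day 7 against day 4 40, day 5 against day 4 42, day 6 against day 5 19 and day 7 against day 6 54. Hairpin deviations correlated between days by 0.02 to 0.82 in Smarcc1 and -0.21 to 0.37 in Smarca4 knockdown (means 0.33 and 0.09), and the block correlation over all genes was 0.217. The days of a hairpin were therefore not independent, and knockdown p-values without the block may be too small.

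Alternatives chosen after seeing the data were the removal of the length trend and the omission of day 5 of Smarca4.6 and Smarcc1.6. Removal of the length trend gave 7 for Smarcc1 knockdown, 5 for Smarca4 knockdown, 2 between them and 35 for day 6 against day 5. The omission gave 7 for Smarcc1 knockdown and 16 for day 5 against day 4. *Sdha* turned direction between day 5 and day 4 with centring (0.020), quantile normalization (0.10), the length trend removed (0.017) and that omission (0.019), and ranged from -0.12 to 0.028 when a hairpin was left out. *Uqcrc1* did so with centring (0.032), quantile normalization (0.054) and without the smallest library (0.051), and ranged from -0.083 to 0.011. Between day 7 and day 6 *Sdha* turned with centring (-0.019) and the length trend removed (-0.010).

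Centring moved the median of all genes from 0.15 to -0.05 between day 7 and day 6 and from 0.08 to -0.09 between day 7 and day 4. Among all genes called, the share higher went from 71.0% to 53.7% (quantile normalization) and 58.5% (limma-voom) in Smarcc1 knockdown, from 70.7% to 60.5% (centring), 52.9% and 58.5% in Smarca4 knockdown, and from 61.5% to 38.2% (centring) and 44.3% (quantile normalization) for day 7 against day 6. The cause of these shifts was not tested. Depth limited *Cox4i2* and *Cox7b2*, and 1 Nons library a day limited every knockdown contrast.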

Other observations

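*Cox7b2* was at a median of 3.84% of *Cox7b* reads on day 4 and 2.27% on day 7. *Ndufa4l2* was at a median of 2.81% of *Ndufa4* reads on day 4, 8.68% on day 5 and 3.86% on day 7, although in Smarcc1.6 this ratio rose on every day.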
